A study of Mus musculus with 24 samples.

Results

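The 10 genes described here make, degrade or sense prostaglandins and leukotrienes. They are Pla2g4a, Ptgs1, Ptgs2, Ptges, Hpgd, Ptger2, Ptger4, Alox5, Alox5ap and Lta4h, chosen by name. A peak was assigned to one of them where its summit had that gene as the nearest mm10 RefSeq protein-coding gene body, at most 50 kb away. This rule took 1579 of the 1274891 peaks deposited for 24 libraries, and these fell into 117 merged regions, of which 103 were found in at least 2 libraries.

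The libraries were ATAC-seq libraries, in which the Tn5 transposase cuts and tags open chromatin, of macrophages grown from bone marrow (BMDM) of male C57Bl/6 mice. Macrophages of mice made diabetic with streptozotocin (STZ), a toxin of insulin-producing beta cells, and of non-diabetic control mice were either left unstimulated or stimulated with the bacterial product lipopolysaccharide (LPS, 100 ng/mL) together with the cytokine interferon gamma (IFNγ, 10 ng/mL). Each of the 4 groups held 6 libraries. Every mouse sample gave cells for both states, so stimulated and unstimulated libraries share their source and are not independent animals. A single chemical toxin produced the diabetes, the cells were differentiated outside the animal, ages are not given in the labels, and the stimulation time is uncertain, since the protocol names 6 h for cells given IL-1β. Baseline cells were lysed at once per that protocol, so stimulation and time in culture cannot be told apart.

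Eicosanoids are lipid mediators made from arachidonic acid. Cytosolic phospholipase A2, the product of Pla2g4a, releases the fatty acid from membranes. Cyclooxygenases 1 and 2 (Ptgs1 and Ptgs2) turn it into prostaglandin H2, which the microsomal prostaglandin E synthase encoded by Ptges converts to prostaglandin E2. The dehydrogenase encoded by Hpgd inactivates prostaglandins, and the receptors EP2 (Ptger2) and EP4 (Ptger4) raise cyclic AMP when prostaglandin E2 binds. In the other branch, 5-lipoxygenase (Alox5) and its activating protein (Alox5ap) make leukotriene A4, and the hydrolase encoded by Lta4h turns that into leukotriene B4, an attractant of neutrophils. Macrophages are a known source of both kinds of mediator, and Ptgs2 and Ptges are textbook genes of the LPS response.

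The sequences just before 4 gene starts are shown as examples of how starts were found: open in every library at Ptgs2 and Ptgs1, in few libraries at Hpgd, and in unstimulated libraries alone at the outer edge of the Ptger2 start. Each is the 250 bases upstream of a RefSeq start (GRCm38.p6, the assembly of mm10), written 5′ to 3′ on the gene's strand, all of them the plus strand. Capitals mark matches to the motifs searched.
Ptgs2, chr1:150099781-150100030: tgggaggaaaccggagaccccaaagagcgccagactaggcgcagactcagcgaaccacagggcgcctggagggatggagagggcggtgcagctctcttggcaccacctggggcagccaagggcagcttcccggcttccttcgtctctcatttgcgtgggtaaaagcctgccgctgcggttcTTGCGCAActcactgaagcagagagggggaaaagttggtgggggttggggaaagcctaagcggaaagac
Ptgs1, chr2:36230176-36230425: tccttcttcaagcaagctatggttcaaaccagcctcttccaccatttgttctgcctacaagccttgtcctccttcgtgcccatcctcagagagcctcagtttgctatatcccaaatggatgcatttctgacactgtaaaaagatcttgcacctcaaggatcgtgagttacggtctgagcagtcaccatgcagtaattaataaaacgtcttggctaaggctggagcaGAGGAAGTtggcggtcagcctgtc
Hpgd, chr8:56294302-56294551: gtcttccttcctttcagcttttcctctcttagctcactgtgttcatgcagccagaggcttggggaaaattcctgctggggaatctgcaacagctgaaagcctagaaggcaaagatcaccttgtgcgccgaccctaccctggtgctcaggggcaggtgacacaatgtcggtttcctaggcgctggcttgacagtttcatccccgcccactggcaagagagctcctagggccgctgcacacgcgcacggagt
Ptger2, chr14:44987861-44988110: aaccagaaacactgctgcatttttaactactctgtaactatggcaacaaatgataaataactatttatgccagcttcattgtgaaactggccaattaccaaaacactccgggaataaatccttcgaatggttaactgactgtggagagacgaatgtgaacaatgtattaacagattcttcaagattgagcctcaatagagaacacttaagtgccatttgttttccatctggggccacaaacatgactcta

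The capitals in the Ptgs2 sequence are a match to the C/EBP motif TTGCNNAA from -69 to -62 relative to the start, which reads the same on both strands. This motif was present in 9.09% of 21262 protein-coding promoter windows of the same length. The capitals in the Ptgs1 sequence are a match to the PU.1 motif GAGGAAGT from -24 to -17, a motif present in 2.23% of those windows. PU.1 and C/EBP proteins are factors of the macrophage lineage, and a match is a description of letters, not of binding. Motifs of NF-kB (GGNNTTTCC, in 4.9% of windows), AP-1 (TGANTCA, 6.13%), CRE (TGACGTCA, 1.92%), the ISRE core (GAAANNGAA, 6.83%) and GAS (TTCNNNGAA, 6.58%), searched on both strands, had no match in this window at any of the 9 genes listed in the promoter table, which did not hold Alox5ap. A peak overlapped the printed Ptgs2 and Ptgs1 windows in all 24 libraries. At Hpgd it did so in 2 of 12 unstimulated and 2 of 12 stimulated libraries. At Ptger2 a peak reached into the window in 6 of 12 unstimulated and 0 of 12 stimulated libraries, a difference that was noticed in the data and was not tested, while the region on the gene side of that start was found in all 24.

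The peak lists held between 41385 and 61861 peaks, with fewer in stimulated control macrophages (47268 ± 4535, SD, n = 6) than in the other groups, whose means lay between 53703 and 55990. The 10 genes took 67.2 ± 5.04 and 58.5 ± 4.76 peaks per library in unstimulated and stimulated control macrophages, and 69.8 ± 4.83 and 67.7 ± 8.02 in unstimulated and stimulated diabetic ones (SD, n = 6 each). Per 1000 peaks of a library these came to 1.2, 1.24, 1.26 and 1.26. Of 15 macrophage marker genes, 14 had a peak within 1 kb in every library, and Lyz2 had one in 18. Markers of other cell types were mixed: such a peak was present in all 24 libraries at 3 of 12 neutrophil genes (Camp, Ltf and Mmp8) and in none at 3 (Elane, Ngp and Ly6g). The corresponding numbers of genes were 2 and 7 of 10 for mast cells and basophils (Kit and Hdc in all), 1 and 5 of 8 for eosinophils (Siglecf), 2 and 5 of 8 for platelets and megakaryocytes (Pf4 and Itga2b), 1 and 5 of 13 for T, NK and B cells (Lck), and 4 and 3 of 11 for stromal and endothelial cells (Pdgfrb, Cdh5, Kdr and Pecam1). Neutrophil markers took 12 to 18, 11 to 18, 14 to 21 and 12 to 20 peaks per library in the same order of groups, mast cell and basophil markers 4 to 9, 4 to 8, 5 to 10 and 4 to 11, and eosinophil markers 10 to 13, 10 to 15, 9 to 13 and 10 to 14. Platelet markers took 4 to 6, 3 to 6, 4 to 6 and 5 to 6, lymphocyte markers 17 to 20, 7 to 18, 15 to 21 and 11 to 22, and stromal markers 22 to 31, 22 to 30, 22 to 30 and 18 to 35.

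With stimulation the regions of these genes changed in both directions. Peaks appeared at Pla2g4a, Ptges, Ptger2 and Ptger4, and disappeared at Hpgd, Alox5 and Alox5ap, with 1 lost region also at Pla2g4a. No region at Ptgs1, Ptgs2 or Lta4h passed the test. A region is called gained or lost where the number of libraries with a peak differed between 12 stimulated and 12 unstimulated libraries at an adjusted p under 0.05 (Fisher's exact test, two-sided, for each region of the whole table, with Benjamini-Hochberg adjustment). Of 45 regions of the 10 genes that could be tested, 8 were gained and 8 were lost, 17.8% in each direction. Over all 31219 regions tested, 9.19% were gained and 18.9% were lost, so the share lost at these genes was near the background. With all lists shortened to 41385 peaks, those backgrounds were 13.2% and 16%, and 9 regions of the 10 genes were gained and 8 lost. The median difference between stimulated and unstimulated libraries was -1 library for the 45 regions and -2 for all regions tested.

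**Figure D1:**
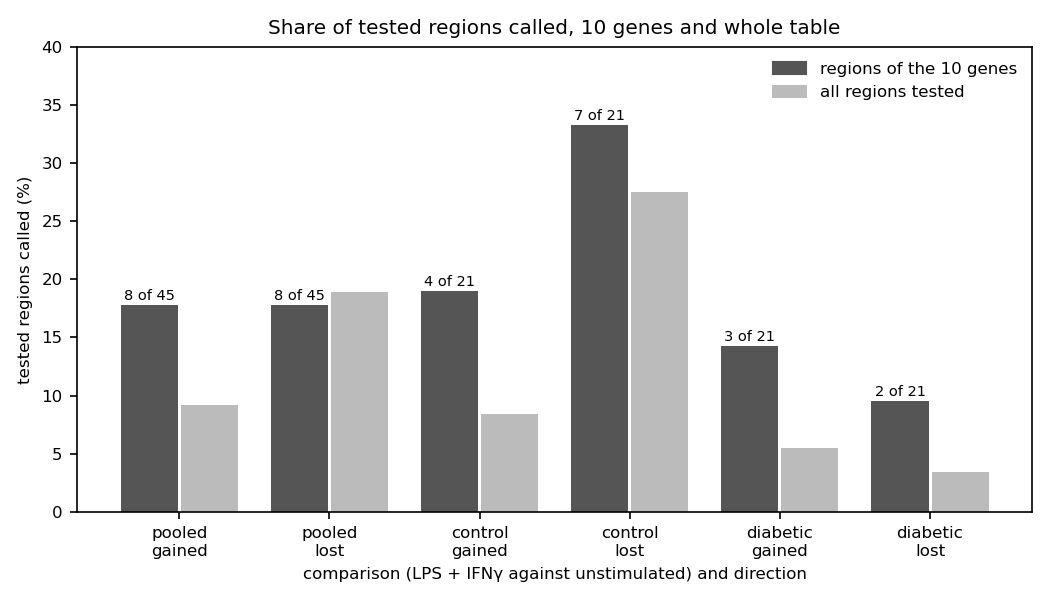
Percent of tested regions called gained or lost with LPS and IFNγ (vertical axis) for the 10 genes (dark bars, with counts) and for all regions tested (light bars), with phenotypes pooled and in each phenotype. In the pooled comparison 8 of 45 regions were called in each direction, against 9.19% gained and 18.9% lost over all regions.

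Of the 16 called regions, 9 lay in gene bodies, 7 outside, and 0 within 1 kb of a start. Only 4 of the 12 start regions found in at least 2 libraries could be tested, so little can be read from that 0. Over the whole table, by the same rule, 487 of 2879 tested start regions were called (16.9%), against 29.2% of the 28340 tested elsewhere. The 16 called regions had a median width of 366 bp, against 751 bp for the 29 regions found in all 24 libraries. A region spans all peaks merged into it, so one found in more libraries tends to be wider, and nothing is read from this contrast. Those 29 made up 28.2% of the 103 regions found in at least 2 libraries, close to the 28.3% of all such regions. A region found in every library cannot be tested by presence, and a region without a peak only fell below the authors' calling threshold and may still be partly open. In bulk nuclei, fewer cells with an open site and a less open site in each cell cannot be told apart.

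**Figure D2:**
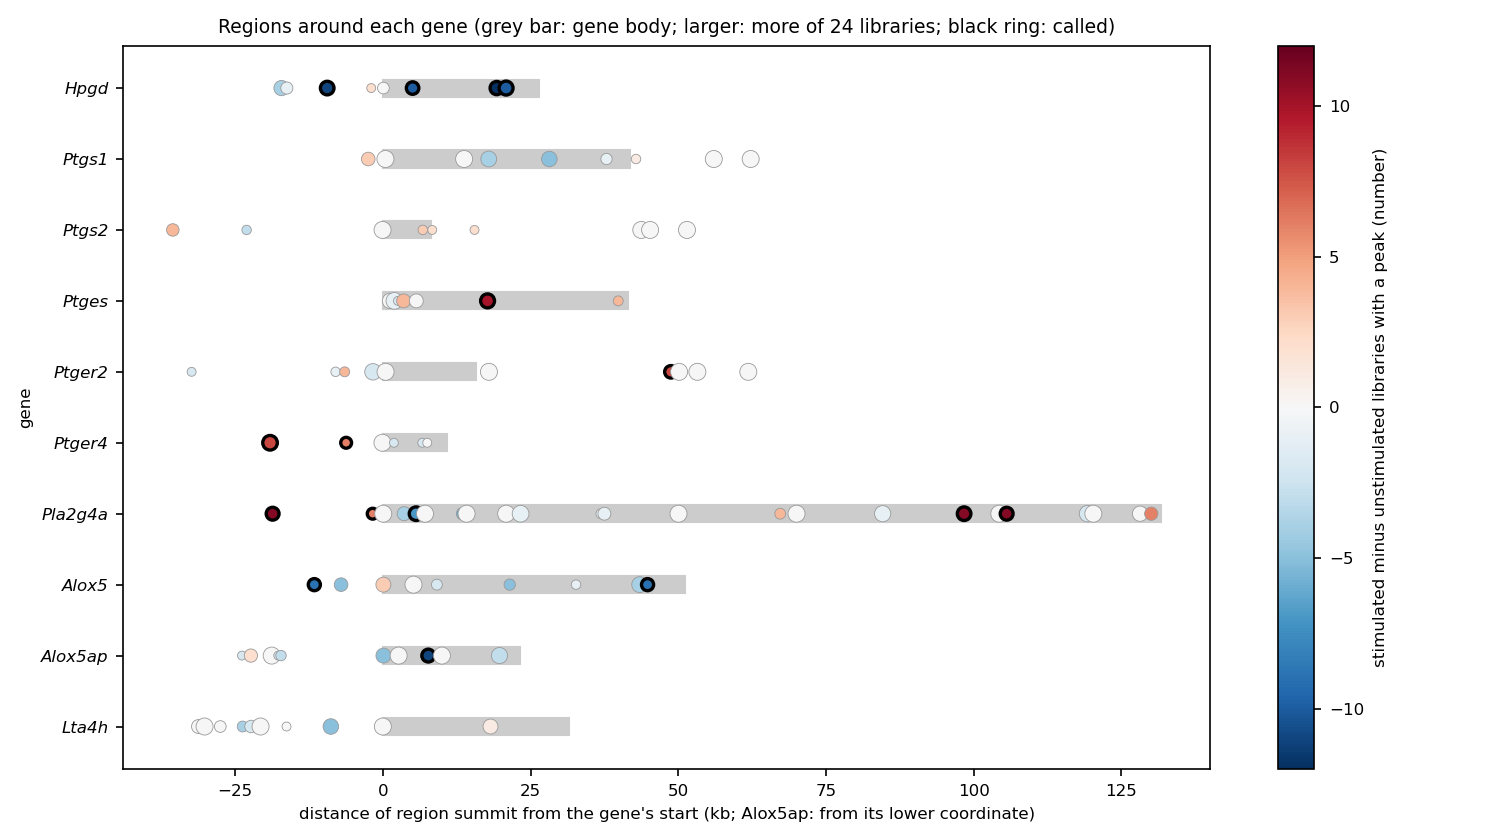
Regions found in at least 2 libraries, by distance of the summit from the 5′ end of each gene body in kb (horizontal axis; for Alox5ap, whose strand is not given, from its lower coordinate). Grey bars are gene bodies, colour is the number of stimulated minus unstimulated libraries with a peak, larger points were found in more libraries, and the 16 regions with a black ring passed the test.

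**Figure D3:**
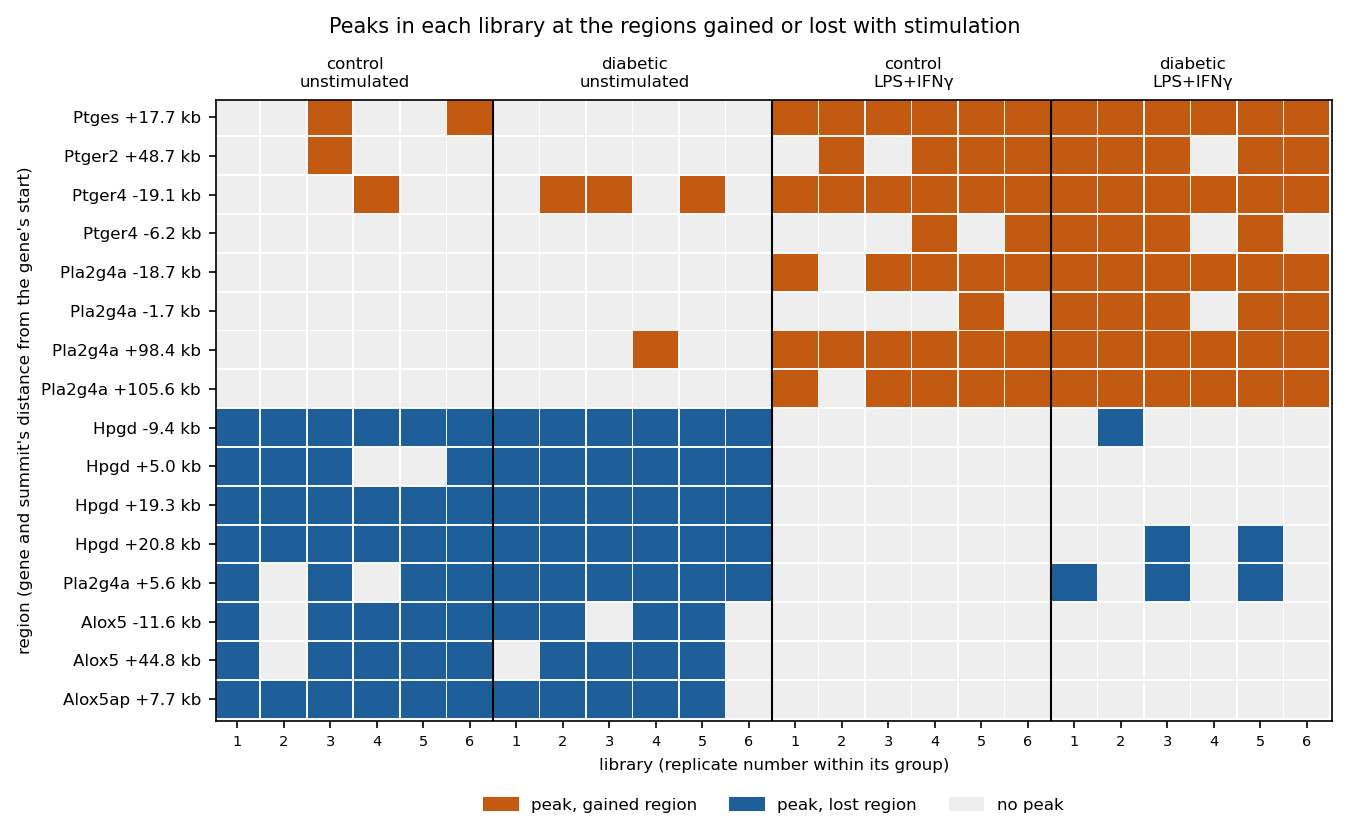
Presence of a peak (filled cell) in each of the 24 libraries (columns, by group and replicate number) at the 16 regions that passed the pooled test (rows, labelled by gene and distance in kb from the 5′ end of the gene body). The region in the Hpgd body at 56313645 had a peak in all 12 unstimulated libraries and in 0 of the stimulated ones, and the Ptger4 region at 5262898 in 4 and 12.

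Pla2g4a, the gene of the enzyme that frees arachidonic acid, gained 4 regions and lost 1 of 11 tested. Its gene body is long (chr1:149829618-149961290, minus strand) and held 23 of its 28 regions. Upstream, a region at chr1:149979759-149980111, 18667 bp from the gene, had a peak in no unstimulated library and in 11 of 12 stimulated ones (adjusted p = 0.000303, Fisher's exact test), missing from 1 stimulated control library. Deep in the gene body, a region at chr1:149862734-149863355 went from 1 to 12 libraries and one at chr1:149855466-149855951 from 0 to 11, each with the same adjusted p of 0.000303. In these 3 regions the counts went from 0 or 1 to 5 or 6 of 6 libraries in control and in diabetic macrophages.

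A smaller gained region lay 1728 bp upstream, at chr1:149962852-149963172, found in 0 of 12 unstimulated libraries, 1 stimulated control library and 5 stimulated diabetic libraries (adjusted p = 0.0489, Fisher's exact test). The lost region, at chr1:149955526-149955860 in the gene body, went from 10 to 3 libraries (adjusted p = 0.0489). Both calls sat at the threshold. The first was lost when any unstimulated library or stimulated control library 5 was left out. The second was lost without any 1 of 15 libraries, namely unstimulated control 1, 3, 5 and 6, stimulated control 1 to 5 and the 6 unstimulated diabetic ones. Without these libraries the adjusted p lay between 0.0501 and 0.0522 for both. With equal list lengths the lost region had an adjusted p of 0.379. The start of the gene (chr1:149960764-149961480) was found in all 24 libraries, with a fold enrichment, the authors' own value for each peak over its local background, between 5.17 and 9.39.

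Far into the gene body a wide region (chr1:149840306-149841492) was found in all 24 libraries and held a second peak. Where summits were kept apart, an alternative added after the data were seen, that peak (summits from 149840433 to 149840546) went from 0 to 11 libraries, 5 control and 6 diabetic (adjusted p = 0.000374, Fisher's exact test). The 2 regions at the threshold above did not pass in that setting.

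Counted over the whole gene, Pla2g4a had 14 to 17 peaks (median 16) in unstimulated control, 14 to 20 (18.5) in stimulated control, 13 to 18 (17.5) in unstimulated diabetic and 17 to 24 (20.5) in stimulated diabetic libraries. The groups overlapped. The mean rose from 16.2 ± 1.7 to 19.3 ± 2.86 peaks (SD, n = 12 each; adjusted p = 0.0421, exact permutation test within phenotypes over all genes). With equal list lengths the means were 13.3 and 17.3 (adjusted p = 0.00139), and with only peaks of a −log10 q-value of at least 5 they were 14.1 and 15.6 and did not pass (0.465). In this gene test 1.91% of 16370 genes rose and 6.83% fell with stimulation.

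**Figure D4:**
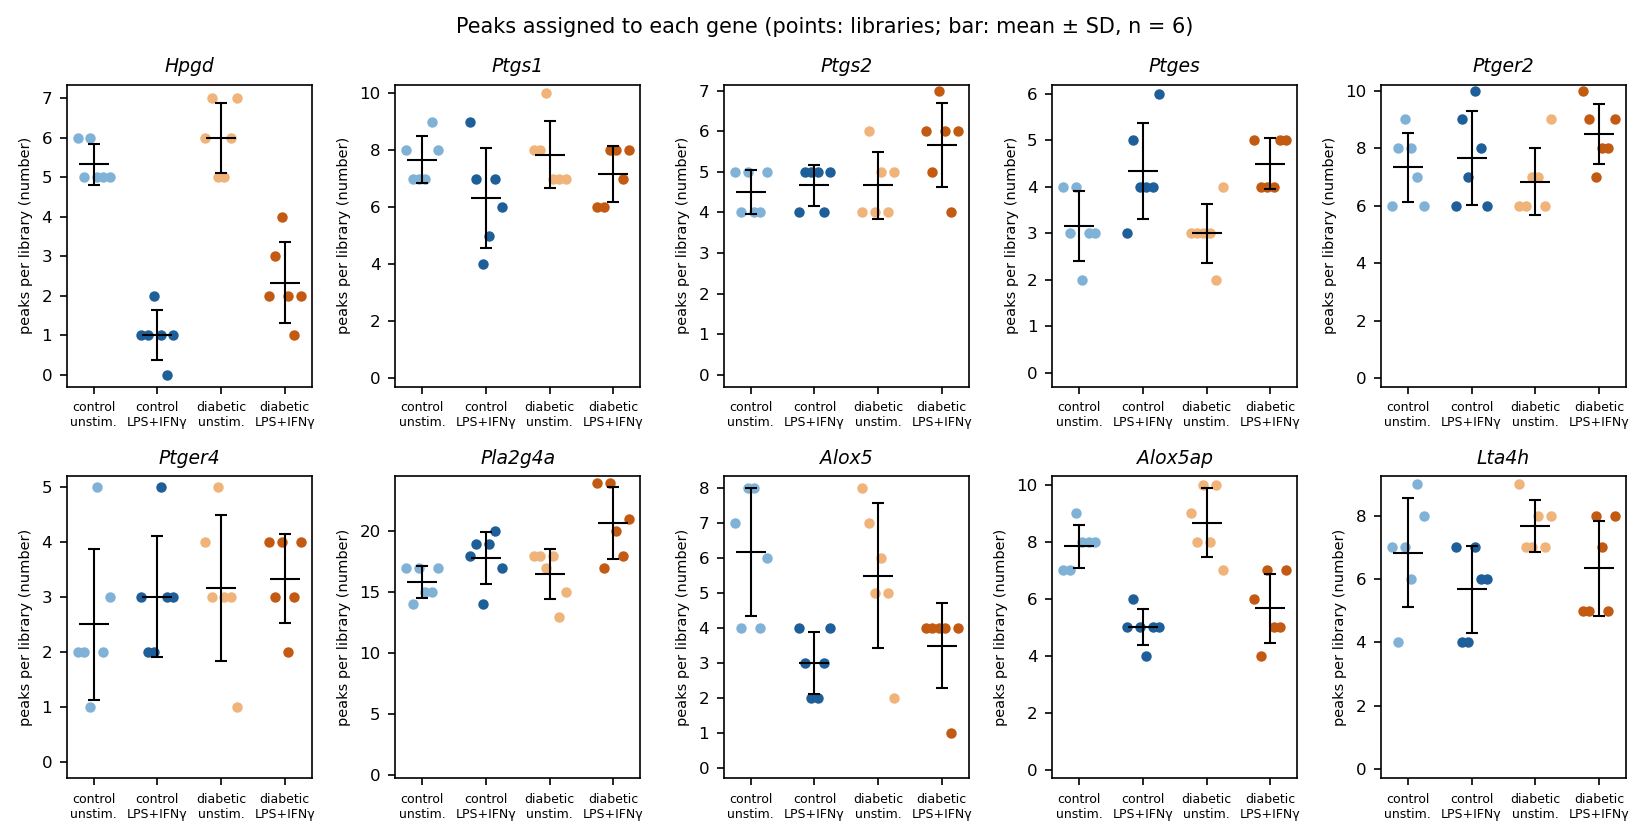
Peaks assigned to each of the 10 genes per library (vertical axis; points are libraries, bars the mean ± SD of 6) in the 4 groups. At Hpgd every stimulated library had at most 4 peaks and every unstimulated library at least 5. With phenotypes pooled, stimulated and unstimulated libraries overlapped at the other 9 genes. Within control libraries Alox5ap did not overlap either (7 to 9 unstimulated, 4 to 6 stimulated). The share of all genes that separate in this way is not given here.

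The cyclooxygenase genes had open starts in both states, as did Pla2g4a, Ptger2, Ptger4 and Lta4h. The Ptgs2 start (chr1:150099505-150100372), around the printed sequence, was found in 24 of 24 libraries. Its folds ran from 10.2 to 15.3 in unstimulated and from 7.21 to 12.7 in stimulated libraries. Of the 10 regions of Ptgs2 (gene body chr1:150100031-150108234), 4 were in all 24 libraries, 3 of these downstream of the gene. At the downstream region chr1:150143482-150144015 folds ran from 10.4 to 14.6 in unstimulated and from 3.73 to 7.6 in stimulated libraries. At chr1:150144981-150145477 and chr1:150151206-150151775 the folds of the 2 states overlapped. Folds were not tested, and the share of all regions whose folds separate is not given here. A further 3 regions in or downstream of the gene appeared in 2 or 3 stimulated libraries and in no unstimulated library, too few to be tested. Ptgs2 had 4 to 5 peaks in both control groups, 4 to 6 in unstimulated diabetic and 4 to 7 in stimulated diabetic libraries, and its means of 4.58 ± 0.669 and 5.17 ± 0.937 (SD, n = 12 each) did not pass the exact permutation test (adjusted p = 0.443).

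Ptgs1 (gene body chr2:36216742-36258593) had 2 starts, one at the gene body's edge and the listed one inside it, and the regions at both (chr2:36216462-36217401 and chr2:36230204-36230793) were found in all 24 libraries. A pair of regions in its body were found in every unstimulated library and in 8 (chr2:36234418-36234859) and 7 (chr2:36244754-36245145) of 12 stimulated libraries. The second did not pass (adjusted p = 0.0967, Fisher's exact test) and the first could not be tested. Of stimulated control libraries, 2 of 6 had the first and 2 of 6 the second, not the same 2. Of stimulated diabetic libraries, 6 of 6 had the first and 5 of 6 the second. With summits kept apart, a second peak at the outer start, with summits from 36216520 to 36216644, went from 9 to 0 libraries (adjusted p = 0.0046, Fisher's exact test), with 3 of 6 control and 6 of 6 diabetic unstimulated libraries holding it. Further upstream, a region at chr2:36203185-36203694 went from 0 to 8 libraries (adjusted p = 0.0101), but 2 of its 8 peaks had Ptgs1 as the nearest gene and the rest another, so it was not counted. Peaks of Ptgs1 per library did not pass as deposited (7.75 ± 0.965 unstimulated and 6.75 ± 1.42 stimulated, SD, n = 12 each; adjusted p = 0.335, exact permutation test), but fell with equal list lengths (6.67 and 5.33, 0.0478) and with the q-value minimum (6.75 and 4.67, 0.00574).

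Ptges, whose enzyme makes prostaglandin E2, gained 1 of 4 tested regions and lost none. The gained region, at chr2:30913001-30913562, was found in 2 of 6 unstimulated control libraries, in 0 of 6 unstimulated diabetic libraries and in all 12 stimulated libraries (adjusted p = 0.00128, Fisher's exact test). In the 2 unstimulated libraries its folds were 4.26 and 5.41, and in the stimulated ones they ran from 5.24 to 13.2. The gene table gives Ptges a body of chr2:30889471-30931020 on the minus strand, and the promoter table starts the gene at 30903297, inside that body. The gained region is therefore within the gene body by the one table and at -10010 bp from the start by the other. No library had a peak over the 250 bases before the listed start. At the 5′ end of the body, where the gene table places the start, a region at chr2:30929402-30930059 was found in 9 libraries of either state. Ptges peaks per library rose from 3.08 ± 0.669 to 4.42 ± 0.793 (SD, n = 12 each; adjusted p = 0.017, exact permutation test), with groups that overlapped, and did not pass with the q-value minimum (0.223).

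Hpgd, the gene of the prostaglandin-inactivating enzyme, lost 4 of 7 tested regions and gained none. At chr8:56313645-56314002 in its body (chr8:56294552-56321046, plus strand), a peak was called in all 12 unstimulated libraries, with folds between 6.18 and 11.4, and in 0 of 12 stimulated libraries (adjusted p = 6.17e-05, Fisher's exact test). A neighbouring region at chr8:56315246-56315547 went from 12 to 2 libraries (adjusted p = 0.00128), both of them diabetic. Another region of the body, chr8:56299350-56299743, went from 10 to 0 (0.00128), and a region 9430 bp upstream, chr8:56284818-56285354, from 12 to 1 (0.000303). All 4 also passed in each alternative setting that was run, including lists of equal length (adjusted p between 4.24e-05 and 0.00921).

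The start of Hpgd itself, next to the printed sequence (chr8:56294459-56294840), had a peak in 4 libraries of either state, and none of the unstimulated control libraries had it. Hpgd had 5 to 6 peaks (median 5) in unstimulated control, 0 to 2 (1) in stimulated control, 5 to 7 (6) in unstimulated diabetic and 1 to 4 (2) in stimulated diabetic libraries. Every stimulated library was below every unstimulated one, but the share of all genes that separate in this way is not given here. The mean fell from 5.67 ± 0.778 to 1.67 ± 1.07 peaks (SD, n = 12 each; adjusted p = 0.00153, exact permutation test). Across the 24 libraries the genes whose share of peaks was most like that of Hpgd were Olfr698 (Pearson r = 0.899), Fan1 and Tmem14c (0.874 each), out of 13129 genes. These correlations are descriptions over libraries that share the same stimulation groups and list lengths.

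Both receptor genes gained regions outside their bodies. For Ptger4, the gene of EP4 (chr15:5233399-5244187, minus strand), both tested regions were gained. The region 19103 bp upstream, chr15:5262898-5263572, was found in 1 of 6 unstimulated control, 3 of 6 unstimulated diabetic and all 12 stimulated libraries (adjusted p = 0.0101, Fisher's exact test). Its folds ran from 4.44 to 6.5 in the 4 unstimulated libraries and from 6.65 to 13.9 in the stimulated ones. The other, chr15:5250279-5250517, 6223 bp upstream, went from 0 to 6 libraries, 2 control and 4 diabetic (adjusted p = 0.0489), and lost its call when any unstimulated library or stimulated control library 4 was left out (adjusted p between 0.0501 and 0.0522). With equal list lengths it was found in 3 stimulated libraries and could not be tested. The Ptger4 start (chr15:5243671-5244903) was found in all 24. Peaks per library did not pass (2.83 ± 1.34 and 3.17 ± 0.937, SD, n = 12 each; adjusted p = 1, exact permutation test).

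Ptger2, the gene of EP2 (chr14:44988111-45003820, plus strand), gained the single region of it that could be tested. This region lay 33033 bp beyond the gene's 3′ end at chr14:45036609-45037038 and was found in 1 unstimulated control library, 4 stimulated control and 5 stimulated diabetic libraries (adjusted p = 0.0184, Fisher's exact test). It did not pass with the q-value minimum (4 against 1 libraries, 0.493). Of the 10 regions of Ptger2, 5 were in all 24 libraries, including the wide start region (chr14:44988046-44989575). Its peaks per library overlapped between states at 7.08 ± 1.16 and 8.08 ± 1.38 (SD, n = 12 each; adjusted p = 0.378, exact permutation test), and rose with equal list lengths (5.75 and 7.5, 0.0157). The genes most like Ptger4 in share of peaks were Qpct (Pearson r = 0.683), Med23 (0.656) and Ticrr (0.655), and those most like Pla2g4a were Ncam2 (0.866), Whamm (0.86) and Schip1 (0.842), over the same 24 libraries.

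In the leukotriene branch 3 of 16 tested regions were lost and 0 gained. The share lost, 18.8%, was near the background of 18.9%, and nothing particular to this branch is read from it. Alox5, the gene of 5-lipoxygenase (chr6:116410071-116461178, minus strand), lost 2 of 6 tested regions in the pooled comparison. One lay 11609 bp upstream (chr6:116472613-116472922) and one in the gene body (chr6:116416232-116416499). Each was found in 5 of 6 unstimulated control, 4 of 6 unstimulated diabetic and 0 of 12 stimulated libraries (adjusted p = 0.00388, Fisher's exact test). With equal list lengths the upstream one was found in 4 unstimulated libraries and could not be tested. A further region, 7082 bp upstream (chr6:116468139-116468417), was lost in control macrophages, from 5 of 6 to 0 of 6 (adjusted p = 0.0422), and was found in 4 of 6 diabetic libraries in both states. The pooled test did not pass there (0.213). Whether the response differed between phenotypes could not be tested at this region, since its number of detections could not have given an unadjusted p under 0.05.

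The Alox5 start (chr6:116460724-116461319) was open in 7 libraries without stimulation and 10 with it (adjusted p = 0.576, Fisher's exact test). Alox5 had 4 to 8 peaks (median 6.5) in unstimulated control, 2 to 4 (3) in stimulated control, 2 to 8 (5.5) in unstimulated diabetic and 1 to 4 (4) in stimulated diabetic libraries. The mean fell from 5.83 ± 1.9 to 3.25 ± 1.06 (SD, n = 12 each; adjusted p = 0.0235, exact permutation test), with groups that overlapped. The genes most like Alox5 in share of peaks were Mtf2 (Pearson r = 0.79), Gpcpd1 (0.786) and Cracr2a (0.772).

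Alox5ap (chr5:149265004-149288153), whose membrane protein presents arachidonic acid to 5-lipoxygenase, lost 1 of 4 tested regions. At chr5:149272538-149272911 in the gene body a peak was found in 6 of 6 unstimulated control, 5 of 6 unstimulated diabetic and 0 of 12 stimulated libraries (adjusted p = 0.000303, Fisher's exact test). Its folds were low, from 2.95 to 5.58, and with equal list lengths it was found in 5 unstimulated libraries and did not pass (0.0938). The region at the gene's lower end (chr5:149264913-149265326) had a peak in 11 unstimulated but 6 stimulated libraries and passed with equal list lengths (adjusted p = 0.0412) but not as deposited (0.162). With summits kept apart, a second peak inside the upstream region chr5:149245535-149246392 went from 8 to 1 libraries (adjusted p = 0.0496). Alox5ap peaks fell from 8.25 ± 1.06 to 5.33 ± 0.985 (SD, n = 12 each; adjusted p = 0.00247, exact permutation test). Unstimulated libraries had 7 to 10 and stimulated ones 4 to 7.

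Lta4h (chr10:93453396-93484896, plus strand), the gene of the hydrolase that completes leukotriene B4, had no called region among 6 tested. Its start (chr10:93452930-93453959) was found in all 24 libraries with folds between 8.92 and 13.7. The nearest to a call was a region 8809 bp upstream (chr10:93444373-93444935), with a peak in 12 libraries before stimulation and 7 after it (adjusted p = 0.0967, Fisher's exact test). Its peaks per library did not pass (7.25 ± 1.36 and 6 ± 1.41, SD, n = 12 each; adjusted p = 0.247, exact permutation test).

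Other genes of eicosanoid metabolism had more lost than gained regions. At 44 such genes, 90 regions could be tested, of which 3 were gained, at 2 genes, and 20 lost, at 12 genes. Losses also outnumbered gains over all regions tested, at 18.9% against 9.19%. Abcc4, an exporter of prostaglandins, did both, with a region at chr14:118678478-118678975 going from 0 to 11 libraries and one at chr14:118577949-118578243 from 12 to 1 (adjusted p = 0.000303 each, Fisher's exact test). A second Abcc4 region, chr14:118649602-118649936, was gained from 0 to 7 libraries (0.0235). A region in the gene of the leukotriene B4 receptor Ltb4r2 (chr14:55763052-55763670) went from 11 to 0 libraries (0.000303). Regions were also lost at the cysteinyl leukotriene receptor gene Cysltr2 (9 to 0 libraries at chr14:73059774-73060072, 0.00388), at Abcc1, an exporter of leukotriene C4 (10 to 1 at chr16:14409750-14410191, 0.00622), at Ptgr1, whose reductase inactivates eicosanoids (10 to 1 at chr4:58989460-58989788, 0.00622), and at the thromboxane synthase gene Tbxas1 (11 to 2 at chr6:38991979-38992367, 0.00622). Further losses were at Pla2g4f, Pla2g15, Mgst2, the prostaglandin D synthase gene Hpgds and the EP3 receptor gene Ptger3, with adjusted p between 0.00622 and 0.0235. The one gain outside Abcc4 was 29277 bp from the aldose reductase gene Akr1b3 (4 to 11 libraries, 0.0437). Among macrophage markers 26 regions were tested, with 0 gains and 9 losses, and among neutrophil markers 15, with 3 gains and 2 losses. Gains and losses were 1 and 0 of 10 for mast cell and basophil markers, 2 and 2 of 9 for eosinophil, 0 and 0 of 1 for platelet, 0 and 3 of 17 for lymphocyte and 3 and 2 of 19 for stromal and endothelial markers. Their part in the results above was not tested.

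Within each phenotype fewer regions could be tested and fewer passed. In control macrophages 4 of 21 tested regions were gained (19%, against 8.41% of all 12111 tested) and 7 were lost (33.3%, against 27.5%). The gains were the distal Ptger4 region and the 3 strongest of Pla2g4a. The losses were 3 of Hpgd, 3 of Alox5 and that of Alox5ap. In diabetic macrophages 3 of 21 were gained (14.3%, against 5.47% of all 11708 tested), at Ptges and at 2 Pla2g4a regions, and 2 were lost (9.52%, against 3.44%), both in Hpgd. The upstream Hpgd region and the Alox5ap region, found in 6 and 5 unstimulated and 1 and 0 stimulated diabetic libraries, had an adjusted p of 0.0559 there (Fisher's exact test). The same value was reached in the other direction at Pla2g4a at 149862734 (1 to 6 diabetic libraries) and 149962852 (0 to 5), and at the gained Ptger2 region (0 to 5). With the adjustment made over all regions rather than those that could pass, 0 regions of the 10 genes were called in either phenotype. The same held for the whole table, with 0 of 80598 regions called, so this 0 is not particular to these genes. The background shares depended on list length. With equal list lengths, 15.5% of all regions tested were gained and 18.8% lost in control macrophages. In diabetic macrophages 17.7% were gained and 14.6% lost. The 10 genes then had 4 gains and 4 losses in control, and 5 gains and 2 losses in diabetic macrophages.

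Control and diabetic macrophages were not told apart at these genes. Among unstimulated libraries 11 regions were tested and 0 called, against 0% of 8788, and among stimulated libraries 13 were tested and 0 called, against 0% of 9681 (Fisher's exact test). Whether the response differed between phenotypes was tested in 15 regions and 0 were called, against 0% of 9353 (Zelen's exact test). None of these regions reached an unadjusted p under 0.05 in the 3 comparisons, against 58 and 79 regions of the whole table in the first, 283 and 9 in the second (more and fewer in diabetic libraries) and 229 for the interaction. With 6 libraries against 6, the smallest p is 0.00216, and a lone region would not pass the adjustment.

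By peaks per gene the exact permutation test called 0 of 16370 genes for stimulation within a phenotype or for phenotype, although 222 to 1992 genes in each direction had an unadjusted p under 0.05 for stimulation in one phenotype, and 12 to 553 for phenotype. Hpgd had 1 ± 0.632 peaks in stimulated control and 2.33 ± 1.03 in stimulated diabetic libraries (SD, n = 6 each; exact permutation p = 0.0455, adjusted p = 1). Stimulated diabetic libraries also had longer peak lists than stimulated control libraries. With lists of equal length the means were 0.667 and 1.33 (exact permutation p = 0.316). With the q-value minimum they were 0.333 and 1 (exact permutation p = 0.275). Counting only peaks within 10 kb of the gene, they were 0.333 and 1.17 (exact permutation p = 0.0455). Unstimulated control and diabetic libraries then had 3.83 and 4.67 (exact permutation p = 0.0455). None of these passed the adjustment.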

How the data were processed

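Peak lists of 24 ATAC-seq libraries, called for each library and deposited by the authors, were used. Tools named in the submitters' processing notes are MACS2 2.1.1, Bowtie2 2.2.6, Trim Galore 1.8, FastQC 0.11.3, edgeR and DiffBind 2.4.8, and the build is mm10. Settings, read totals and any Tn5 shift are not given in the sources used. Each peak deposited by the authors carries a fold enrichment (a ratio over local background) and a −log10 q-value of at least 1.302. The q-value served to filter and rank peaks within a list, and the fold only to describe peaks. Folds printed by state were not tested between libraries and may depend on read totals, which are not given.

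Peaks overlapping by at least 1 bp were merged (bedtools 2.31.1, Python 3.11.15, scipy 1.17.1). Regions in at least 2 libraries were compared by Fisher's exact test, with Benjamini-Hochberg adjustment over those able to reach an unadjusted p of 0.05, and by Zelen's exact test for the interaction. A region belonged to a gene where most of its peaks did, so 2 mixed regions near Ptgs1 and Lta4h were left out. Peaks per gene were compared by exact permutation tests. The tests were tested on simulated data. Groups and replicate numbers came from the titles. Per the series description each mouse sample was divided between both states, but no label ties a number to one mouse. Tests were therefore unpaired and treat libraries that share a source as independent, and p-values measure the spread between libraries.

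Genes came from RefSeq tables of GRCm38.p6. Exons, introns and UTRs were not resolved, and the nearest gene need not be the one a region acts on. A start region lay within 1 kb of a listed start or of the 5′ end of the body (for Alox5ap, of either end). The text names every called region and each start, at most 12 other pathway genes by smallest p, and 3 genes most like each gene with 2 or more calls. The genes and lists were chosen with earlier results of these data known. Alternatives were equal list lengths, a −log10 q-value of at least 5, merging within 200 bp, adjustment over all regions, a distance of at most 10 kb, a replicate block, leaving out each library and, added after the data were seen, summits within 100 bp.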

Additional observations from a re-analysis of the deposited data

Results flagged for a closer look

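Of 76 groups of 6 libraries checked for one value far from the others, 5 had such a value; chance gives about 1 in 20. One stimulated control library, number 3, had 49 peaks at the 10 genes, against 59 to 62 in the others, and was also the shortest list of all (41385 peaks). One stimulated control library had 5 Ptger4 peaks, with 3 in the next. Single unstimulated diabetic libraries had 10 Ptgs1 peaks, with 8 in the next, and 9 Ptger2 peaks, with 7 in the next. One stimulated diabetic library had 1 Alox5 peak, where the others had 4.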

How the results depend on the processing

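No called region changed direction in any alternative, and merging peaks up to 200 bp apart changed no call. Of 150 values of peaks per gene at the 10 genes (5 comparisons, 3 alternatives), 10 changed direction, none of them called as deposited or in the alternative, and 6 of these compared phenotypes. One was the pooled difference of Ptger4, 0.333 peaks as deposited and -0.25 within 10 kb. With lists of equal length 4 regions were lost in control and 5 gained in diabetic macrophages (7 and 3 as deposited). Over all regions tested with those lists, 18.8% were lost in control and 17.7% gained in diabetic macrophages. Of the pooled calls 7 of 8 gains and 5 of 8 losses were kept. With a −log10 q-value of at least 5, 5 regions were gained and 11 lost in the pooled comparison. Over all regions tested, 7.4% were gained and 23.7% lost there. In this setting 2 regions were gained in control (6.22% of all tested) and 1 was lost in diabetic macrophages (4.14% of all tested). Adjusted over all regions, 0 were gained and 0 lost in either phenotype, as was so for all 80598 regions. Of the pooled comparison 6 gains and 7 losses were kept, where 2.12% of all regions were gained and 3.69% lost. Within 10 kb of a gene, 5 were gained in the pooled comparison and 2 in control, and 3 genes (Hpgd, Alox5ap and Ptges) in place of 5 passed the test of peaks per gene. Leaving out each library gave 6 to 9 gained and 7 to 11 lost regions. The calls lost were those of 2 Pla2g4a regions and 1 Ptger4 region named above. The number of regions of the 10 genes tested with changed lists, within 10 kb, without a library or with the block below is not given here. These counts therefore describe how calls moved and are not read against the shares of all regions.

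With a replicate block, which paired same-numbered libraries of a phenotype (exact McNemar test), 5 regions were gained in the pooled comparison, 1 was gained and 4 were lost in control macrophages. Over all regions tested with the block, 11.7% were gained in the pooled comparison. In control macrophages 24.3% were gained and 59.3% lost. The 3 gains that did not pass with the block were Ptger2 (adjusted p = 0.0601), Ptger4 at 5250279 and Pla2g4a at 149962852 (0.0653 each). Correlations of same-numbered libraries lay between -0.00984 and 0.0159. The medians for libraries of other numbers were -0.00031 in control and -0.000462 in diabetic macrophages. These values served only to compare same-numbered with other pairs. Of 6 stimulated libraries in each phenotype, 1 correlated best with the unstimulated library of its number, as did 1 control and 2 diabetic unstimulated libraries in the other direction, so the numbers did not show a pairing.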
